A study of Homo sapiens with 25 samples.

Results

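AsiSI sites at the promoters of protein-coding genes were examined as targets of an inducible restriction enzyme in human cells. A promoter site was any occurrence of the recognition sequence GCGATCGC on chromosomes 1 to 22 and X of GRCh37 that lay no more than 2000 bp from a transcription start site (TSS). A TSS here is where the GENCODE record of a protein-coding gene begins on its own strand. This rule took in 20.7% of the 1211 predicted sites. Of the promoter sites, 128 were in the list of cut sites that the authors derived from BLISS (listed sites) and 123 were not (unlisted sites). Among all predicted sites, 17.7% were listed.

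BLISS ligates sequencing linkers to free DNA ends in fixed cells. It was carried out on DIvA cells, a puromycin-selected derivative of the U2OS osteosarcoma line that stably expresses AsiSI fused to an oestrogen receptor domain. Both groups carried this fusion protein: induced cells received 300 nM 4OHT for 4 h, which sends the enzyme to the nucleus, and uninduced cells were mock treated. There was 1 BLISS library per group, so no value below has an error between experiments. The list gives a position for each site and no read count, so the depth of the libraries is unknown, a site can only be called listed or unlisted, and cell identity could not be checked against marker genes.

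As background, AsiSI cuts double-stranded DNA within a palindrome that itself contains CpG dinucleotides, and methylation of these cytosines blocks cleavage. Most human housekeeping promoters lie in CpG islands, stretches in which CpG dinucleotides are far more frequent than in the rest of the genome and usually unmethylated. Promoters of tissue-specific and developmental genes can be silenced in a given cell type, in part through Polycomb proteins or DNA methylation.

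At 3 genes the same promoter carried a listed and an unlisted site, and sequence around these sites is shown because the pair shares its gene, except that for ERO1A only the listed site is shown. PTPRM encodes a receptor tyrosine phosphatase, ERO1A an oxidase that forms disulphide bonds in the endoplasmic reticulum, and CUX1 a homeodomain transcription factor. Sequences are from GRCh37, 5′ to 3′ on the strand of the gene, with the AsiSI site in capitals. The stretch is 100 bases long, or 30 bases where an annotated untranslated region was close.
PTPRM, listed, chr18:7566666-7566765, + strand: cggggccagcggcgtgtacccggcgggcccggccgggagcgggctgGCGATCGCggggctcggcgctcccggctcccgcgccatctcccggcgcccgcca
PTPRM, unlisted, chr18:7568306-7568405, + strand: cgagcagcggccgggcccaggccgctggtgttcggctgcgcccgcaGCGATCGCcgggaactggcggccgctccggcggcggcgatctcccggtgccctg
ERO1A, listed, chr14:53162345-53162374, - strand: gtcgcgaggtgGCGATCGCtgagaggcagg
CUX1, listed, chr7:101458802-101458901, + strand: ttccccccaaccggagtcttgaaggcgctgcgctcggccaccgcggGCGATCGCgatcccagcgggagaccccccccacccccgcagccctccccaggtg
CUX1, unlisted, chr7:101460469-101460568, + strand: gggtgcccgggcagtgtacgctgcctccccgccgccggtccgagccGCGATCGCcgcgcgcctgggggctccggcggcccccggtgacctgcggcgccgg

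In each of these 3 pairs the listed site was the one closer to the TSS of the gene record. At PTPRM the listed site lay 61 bp from the TSS and the unlisted site 1572 bp from it. At ERO1A the distances were 255 bp for the listed site and 644 bp for the unlisted site. At CUX1 they were 329 bp for the listed site and 1331 bp for the unlisted site. Both CUX1 sites lay upstream of the canonical transcript of the gene, so from its start the unlisted site was the closer one. The CpG observed/expected ratio, the number of CpG dinucleotides relative to that given by the C and G content, was computed over 250 bp on each side. It was higher at the listed site for PTPRM (0.983 against 0.815) and ERO1A (0.927 against 0.530), but not for CUX1 (0.860 against 0.911). The 100 bases at the unlisted CUX1 site held 18 CpG dinucleotides and those at the listed site held 11. All 6 sites had unique sequence on both sides, which means that the 31 bases running outwards from the cut occurred once in the genome. LMNB2, which encodes a nuclear lamin and was named after its values were seen, had 3 sites at its promoter (355, 857 and 958 bp from the TSS) and all were listed. The other promoters with several sites of a single class were those of NAAA (27 and 1529 bp) and PITPNA (535 and 1802 bp), and their sites were all unlisted. Flanks were unique at 4 of the 7 sites of these 3 promoters, but not at the 355 bp site of LMNB2, the 1529 bp site of NAAA and the 535 bp site of PITPNA. The 857 and 958 bp sites of LMNB2 are so close that the windows of 100 bp on each side in which the authors counted reads overlap.

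Sites within 10 bp of a TSS were found in both classes. The sequences of the closest listed and unlisted sites are shown because distance alone did not separate them.
SLCO3A1, listed, chr15:92396927-92396956, + strand: aggaggaagggGCGATCGCggcggcggcgg
AGA, listed, chr4:178363564-178363593, - strand: ttaattgttcgGCGATCGCtggctgccggg
RPL22, unlisted, chr1:6269430-6269459, - strand: tggtcaggctcGCGATCGCcgccgcgcggc
HTR1B, unlisted, chr6:78173184-78173213, - strand: gggacaaacctGCGATCGCcacggtccttc

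The site of SLCO3A1, an organic anion transporter, included the TSS itself and was listed. The site of AGA, a lysosomal amidase, was 9 bp from its TSS and was listed too. The next closest listed sites were those of TRIM37 (14 bp), a ubiquitin ligase, CPEB2 (18 bp), an RNA-binding protein, and KDELR3 (18 bp), a receptor that retains proteins in the endoplasmic reticulum. They were followed by COL12A1 (25 bp), a collagen, CYB561D1 (25 bp), BCKDHA (29 bp), a subunit of the branched-chain keto acid dehydrogenase, KYAT3 (33 bp), an aminotransferase, and LUZP2 (34 bp).

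The unlisted site of RPL22, a ribosomal protein gene, was 1 bp from its TSS, with a CpG ratio of 0.751. The unlisted site of HTR1B, a serotonin receptor gene, was 6 bp from its TSS, with a CpG ratio of 0.641. The other unlisted sites nearest to a TSS belonged to NVL (13 bp), an ATPase of ribosome assembly, ZNF202 (13 bp), a zinc finger protein, NAAA (27 bp), a lysosomal hydrolase, and FNDC1 (35 bp). NPY5R (48 bp), a neuropeptide Y receptor, ZPBP2 (59 bp), a sperm protein, TGFBR3 (60 bp), a co-receptor of the TGF-β family, and LANCL3 (77 bp) completed the 10. Their CpG ratios ran from 0.641 to 1.03, with a median of 0.780, against 0.491 to 1.03 and a median of 0.891 at the 10 closest listed sites, so the ranges overlapped almost fully. Flanks were unique at 9 of these 10 unlisted sites, TGFBR3 being the exception, and at 10 of the 10 listed sites.

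Promoter sites were listed far more often than the rest. The share was 51% (95% Wilson interval 44.8 to 57.1%) at promoters, 9.21% (7.05 to 11.9%) of 543 sites in gene bodies beyond promoters and 8.63% (6.30 to 11.7%) of 417 sites outside protein-coding genes. The promoter share exceeded that of the 960 sites beyond promoters by 42.0 percentage points (95% Newcombe interval 35.6 to 48.4). These intervals cover counting error only, and sites are not replicates of the experiment.

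Within the promoter window the share fell with distance. It was 68.4% (26 of 38 sites) up to 100 bp, 75.7% (28 of 37) over 100 and up to 250 bp, and 57.5% (23 of 40) over 250 and up to 500 bp. It was 45.8% (33 of 72) over 500 and up to 1000 bp, and 28.1% (18 of 64) over 1000 and up to 2000 bp. Of the 4 steps between neighbouring distance bins, only that at 1000 bp had an interval without 0 (17.7 points, 1.42 to 32.6). Sites up to 500 bp were listed in 67.0% (57.9 to 74.9%) and those farther away in 37.5% (29.8 to 45.9%), a difference of 29.5 points (17.2 to 40.5).

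The median distance was 342 bp for listed sites (quartiles 114 and 713 bp) and 722 bp for unlisted sites (quartiles 357 and 1344 bp). The difference of the medians was -380 bp (-595 to -187). The farthest listed promoter site, 1548 bp from the TSS of CDK12, which encodes a kinase of RNA polymerase II, stood well inside the window, whereas the farthest unlisted one was at 1906 bp. Just outside the window, over 2000 and up to 5000 bp, 8 of 74 sites (10.8%, 5.58 to 19.9%) were listed, 17.3 points (4.14 to 30.4) fewer than over 1000 and up to 2000 bp.

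**Figure D1:**
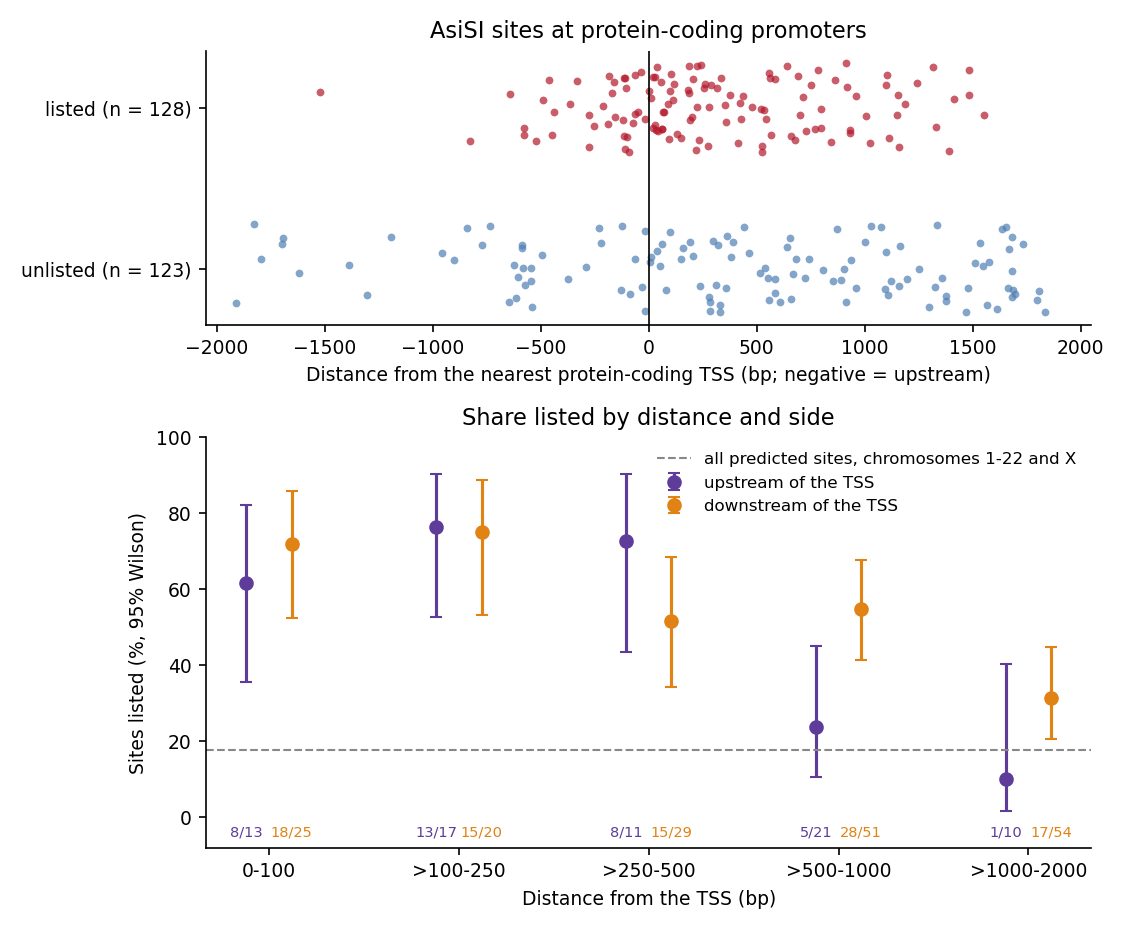
The upper panel places each of the 128 listed and 123 unlisted promoter sites by its distance in bp from the nearest protein-coding TSS, with random vertical scatter. The lower panel gives the percentage listed per distance bin for upstream and downstream sites with 95% Wilson intervals and the counts, and the dashed line is the 17.7% of all predicted sites; upstream sites over 500 bp away fall to 23.8% and 10.0%.

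Over the whole window, the difference between the sides of the TSS was within counting error. Of 72 upstream sites 48.6% (37.4 to 59.9%) were listed, and of 179 downstream sites 52.0% (44.7 to 59.2%), a difference of 3.34 points (-10.1 to 16.6). The 2 sides differed in how fast the share fell with distance, a split chosen after seeing the data. Upstream, 29 of 41 sites up to 500 bp (70.7%) and 6 of 31 farther sites (19.4%) were listed, a fall of 51.4 points (28.6 to 66.9). Downstream, 48 of 74 (64.9%) and 45 of 105 (42.9%) were listed, a fall of 22 points (7.16 to 35.4). The upstream fall exceeded the downstream one by 29.4 points (2.96 to 50.8). The farther sites of the 2 sides also differed in sequence. Of the 31 farther upstream sites, 15 were CpG-poor by the limit given further below, and 2 of these 15 were listed. Both sides together held 37 farther CpG-poor sites, of which 9 were listed. Some unlisted farther upstream sites, such as those of SPCS1, LARP1B, PUS7 and RPS3, lacked unique flanks. The falls were not split by CpG ratio or flanks, so the part of these features was not tested.

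Of the 6 listed sites more than 500 bp upstream, 5 are named here, after their values were seen. They were those of RPN1, a subunit of the oligosaccharyltransferase, IDH3G, a subunit of isocitrate dehydrogenase, SDK2, an adhesion molecule, DCAF17, a ubiquitin ligase adaptor, and HEBP1, a haem-binding protein. IDH3G and DCAF17 each had a protein-coding TSS on the other strand within the window as well.

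Position in the gene was placed on the canonical transcript of the nearest gene. Sites in a 5′ untranslated exon were listed in 21 of 34 cases (61.8%, 45 to 76.1%) and those in a coding exon in 13 of 22 (59.1%, 38.7 to 76.7%). Intronic sites were listed in 42 of 89 cases (47.2%, 37.1 to 57.5%), and sites upstream of the canonical transcript numbered 51 listed and 50 unlisted (50.5%, 40.9 to 60.1%). These 4 intervals overlapped. Exons held 27.3% of the listed and 20.3% of the unlisted sites, a difference of 7.02 points (-3.57 to 17.4) that counting error spans. With exons of any transcript the shares were 44.5% and 32.5%, a difference of 12.0 points whose interval just reached 0 (-0.0302 to 23.6). The nearest gene had a median length of 55.3 kb at listed and 34.7 kb at unlisted sites. The difference was 20.6 kb (0.617 to 38.9). Genes with several sites entered once per site, and this comparison was not among those planned.

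Taken over the whole window, listed promoter sites stood in sequence richer in CpG. The median CpG ratio was 0.827 (quartiles 0.721 and 0.928) at listed sites and 0.736 (0.593 and 0.853) at unlisted sites, a difference of 0.0908 (0.0424 to 0.149). Within sites up to 500 bp (0.0447, -0.0420 to 0.130) and within farther sites (0.102, -0.0156 to 0.173) the interval of this difference included 0, as it did over the whole window when 100 bp (-0.00730 to 0.101) or 1000 bp (-0.0111 to 0.121) on each side were used. Over the 20098 protein-coding TSSs themselves the median was 0.717. Median GC content was 66.2% at listed and 62.6% at unlisted sites, a difference of 3.64 points whose interval held 0 (-1.31 to 7.04) and whose sign turned with a window of 1000 bp, with unique sites only and among sites up to 500 bp (-2.66 points, -6.53 to 3.27).

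The share listed rose from 7.14% (1 of 14) at CpG ratios below 0.4 to 66.1% (41 of 62) at 0.9 and above. Between these ends it was 60.0% (6 of 10) from 0.4 to 0.5, 31.8% (7 of 22) from 0.5 to 0.6, 45.7% (16 of 35) from 0.6 to 0.7, 43.8% (21 of 48) from 0.7 to 0.8 and 60.0% (36 of 60) from 0.8 to 0.9. The rise was therefore not even. At a ratio of 0.6 or more, a customary limit for CpG islands, 114 of 205 sites (55.6%, 48.8 to 62.3%) were listed, against 14 of 46 below it (30.4%, 19.1 to 44.8%). The difference was 25.2 points (9.26 to 38.3).

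**Figure D2:**
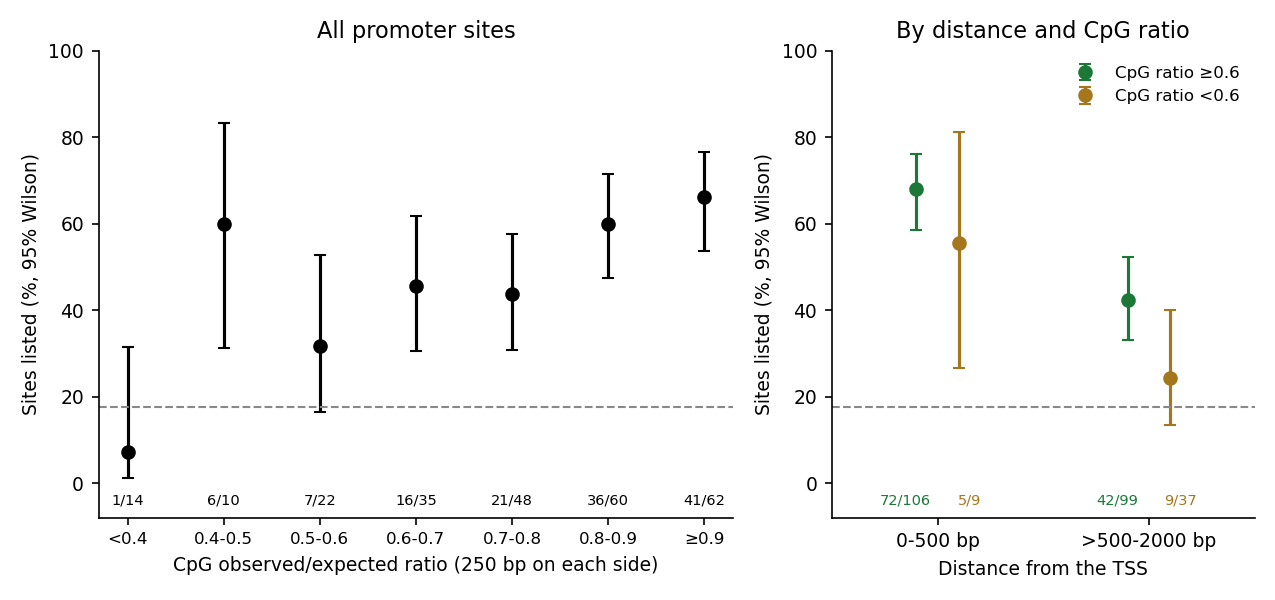
Percentage of promoter sites listed, with 95% Wilson intervals and counts, by CpG observed/expected ratio (left) and by distance from the TSS for sites at or above and below a ratio of 0.6 (right); dashed lines mark the 17.7% of all predicted sites. The lowest CpG bin (1 of 14) stands below all others, and at both CpG levels sites up to 500 bp have the higher share.

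The difference with distance was also seen among CpG-rich sites alone, a subset chosen after seeing the data. Among CpG-rich sites (ratio of 0.6 or more), 72 of 106 up to 500 bp (67.9%) and 42 of 99 farther away (42.4%) were listed, a difference of 25.5 points (11.9 to 37.8). Among CpG-poor sites the counts were 5 of 9 (55.6%) and 9 of 37 (24.3%), a difference of 31.2 points (-1.69 to 59.1). The 2 differences were not distinguishable (-5.73 points, -36.7 to 29.4). Up to 500 bp, the CpG-rich share exceeded the CpG-poor one by 12.4 points (-14.9 to 42.4), with only 9 CpG-poor sites to compare.

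The sites at the ends of the CpG range are shown to make this concrete. The listed promoter site with the lowest ratio (0.40) was 445 bp upstream of SLC7A10, an amino acid transporter, and the unlisted site with the highest (1.07) was in an intron of ELMO1, an activator of Rac signalling, 1357 bp from the TSS.
SLC7A10, listed, chr19:33717155-33717254, - strand: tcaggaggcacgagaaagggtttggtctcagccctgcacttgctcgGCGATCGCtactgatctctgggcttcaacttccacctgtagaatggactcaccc
ELMO1, unlisted, chr7:37487416-37487515, - strand: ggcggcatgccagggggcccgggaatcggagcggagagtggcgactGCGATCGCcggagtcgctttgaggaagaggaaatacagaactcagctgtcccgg

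These 100 bases held 4 CpG dinucleotides at SLC7A10 and 10 at ELMO1, the AsiSI site included. The other listed sites with the lowest ratios were at RPN1 (0.405, 576 bp), SLC10A7 (0.425, 709 bp), a bile acid transporter family member, DCAF17 (0.432, 823 bp) and KLF6 (0.460, 1151 bp), a zinc finger transcription factor. The other unlisted sites with the highest ratios were at ARHGAP42 (1.07, 292 bp), a GTPase regulator, PRDM16 (1.07, 569 bp), a transcription factor of brown fat, BCL2L11 (1.06, 1692 bp), the apoptosis protein BIM, and OTUD5 (1.04, 958 bp), a deubiquitinase. In both sets of 5, 4 sites were more than 500 bp from the TSS and 5 had unique flanks.

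**Figure D3:**
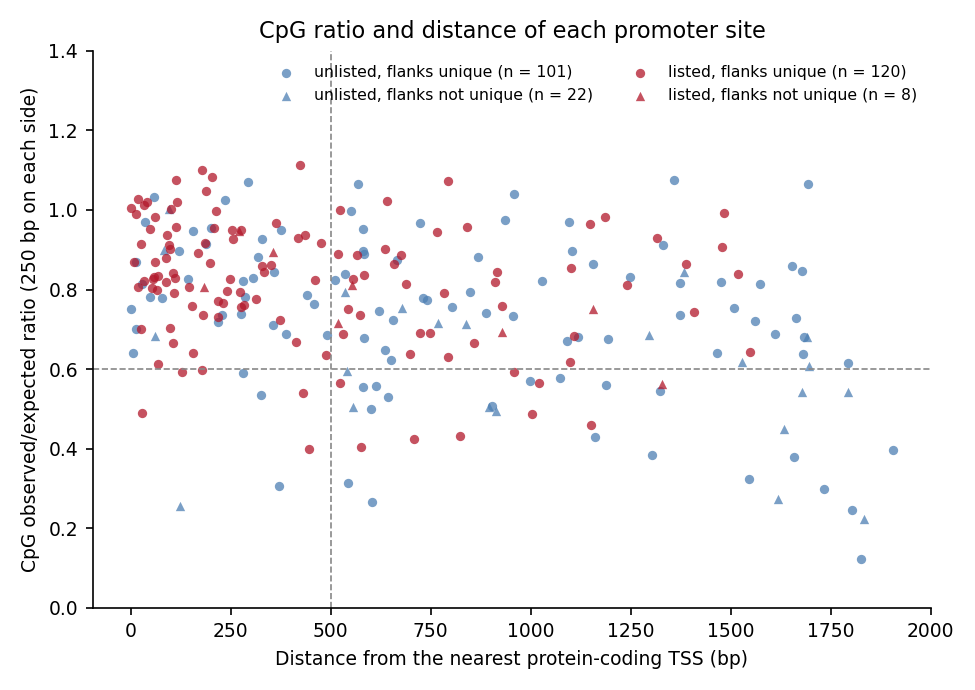
Each point is a promoter site, placed by its distance in bp from the nearest protein-coding TSS and its CpG observed/expected ratio, with colour for listing and triangles for sites whose flanking 31-mers are not unique. Dashed lines mark 500 bp and a ratio of 0.6; the upper left field holds 72 listed and 34 unlisted sites and the lower right field 9 and 28.

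CpG density fell outwards from the sites of both classes, and faster from listed ones. In the first 50 bp outside the site, listed sites had 9.12 ± 0.386 CpG per 100 bp (mean ± SEM over 128 sites) and unlisted sites 7.95 ± 0.481 (123 sites). Between 500 and 550 bp the values were 6.15 ± 0.305 and 5.17 ± 0.337. The order was turned between 1500 and 1550 bp, where listed sites had 2.35 ± 0.236 and unlisted sites 3.08 ± 0.249. In the last 50 bp before 2000 bp, listed sites (1.85 ± 0.162) were near the 960 sites beyond promoters (1.74 ± 0.0732), whereas unlisted sites remained higher (2.65 ± 0.276). Listed sites also lay closer to the TSS (median 342 bp against 722 bp). These profiles were not split by that distance, so its part in the difference was not tested.

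**Figure D4:**
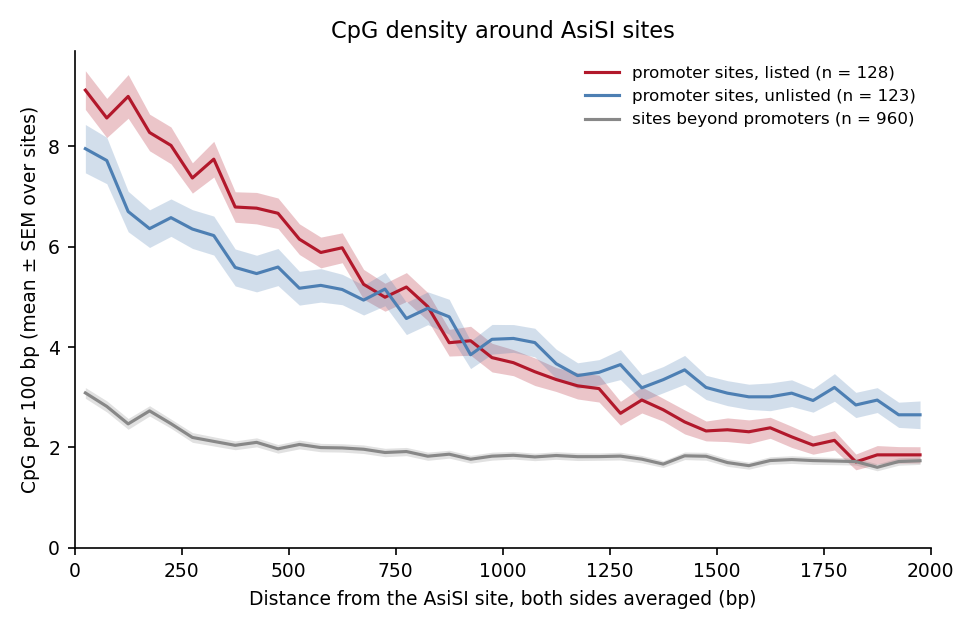
Mean number of CpG dinucleotides per 100 bp in 50-bp bins outwards from the AsiSI site, both sides averaged, with SEM over sites as bands, for 128 listed and 123 unlisted promoter sites and 960 sites beyond promoters. Listed promoter sites start highest (9.12 per 100 bp) and lie below unlisted ones from 1000 bp outwards.

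Sequence that could be mapped uniquely was more frequent at listed sites. Unique 31-mers on both sides were found at 120 of 128 listed (93.8%, 88.2 to 96.8%) and 82.1% (74.4 to 87.9%) of 123 unlisted sites, a difference of 11.6 points (3.60 to 19.9). The authors kept only uniquely mapped reads. Without the 8 listed and 22 unlisted sites that lacked unique flanks, 54.3% (47.7 to 60.7%) of 221 sites were listed and the difference between near and far sites was 27.8 points (14.7 to 39.6).

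Short promoter elements were counted on both strands within 150 bp on each side of the site. The GC box (GGGCGG), the element bound by SP and KLF factors, was present at 81 of 128 listed (63.3%) and 53 of 123 unlisted sites (43.1%), a difference of 20.2 points (7.85 to 31.7). The same window around all protein-coding TSSs held it in 54.5%. Up to 500 bp from the TSS, a subset also chosen after seeing the data, the GC box was present at 59 of 77 listed (76.6%) and 21 of 38 unlisted sites (55.3%), a difference of 21.4 points (3.34 to 38.9). Farther away the values were 43.1% and 37.6%, a difference of 5.49 points (-11.0 to 22.1). With 300 bp on each side the difference among near sites was 10.7 points (-2.64 to 26.8). Turned round, near sites with a GC box were listed in 59 of 80 cases (73.8%) and near sites without one in 18 of 35 (51.4%). This difference exceeded that among farther sites by 16.9 points, with an interval that included 0 (-7.97 to 41.1). Among near sites with a CpG ratio of 0.6 or more, that difference was 19.5 points, with an interval that reached 0 (-0.523 to 39.2). The GC box is itself made of G and C and contains a CpG, so its count and the CpG ratio are not independent.

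For the other elements the interval of the difference included 0. The CCAAT box (CCAAT) was present at 28 listed and 23 unlisted sites (21.9% and 18.7%; 34.2% of all TSSs), and the E-box (CACGTG) at 10 and 9 (7.81% and 7.32%; 7.94% of all TSSs). The ETS element (CCGGAAG) was found at 12 listed and 7 unlisted sites, against 12.2% of all TSSs. The NRF1 element (GCGCATGCG) was found at 2 and 1 sites (2.30% of all TSSs), and the YY1 element (AAGATGGCG) at 2 and 0 sites (2.38% of all TSSs). The TATA box (TATAAA) was absent within 150 bp of all 128 listed sites and present at 4 unlisted sites (3.25%), against 9.43% of all TSSs. Within 300 bp it was present at 5 listed and 11 unlisted sites, and the difference among sites over 500 bp from the TSS was -11.0 points (-19.9 to -0.955), against 5.19 points (-4.51 to 12.6) among nearer sites. The CRE (TGACGTCA) was found within 150 bp of no promoter site, against 2.19% of all TSSs. Within 300 bp the CRE was present at 4 listed sites and 1 unlisted site, against 2.77% of all TSSs. A match describes the letters only, and no match says nothing of the factor.

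The elements were also counted in the promoter itself, from 250 bp before to 50 bp after the TSS. The GC box was then present for 71.9% of listed and 61.8% of unlisted sites, a difference of 10.1 points (-1.54 to 21.4). The CRE, the element of cyclic AMP responsive factors, was present for 2 listed (1.56%) and 9 unlisted sites (7.32%), a difference of -5.76 points (-11.9 to -0.526), and in 2.29% of all promoters. The TATA box was present for 8 listed (6.25%) and 16 unlisted sites (13.0%), a difference of -6.76 points (-14.5 to 0.643). The YY1 element was present for 7 listed (5.47%) and 1 unlisted site (0.813%), a difference of 4.66 points (0.0597 to 10.1), and in 1.87% of all promoters. With 8 elements counted in each of 3 windows and no correction for their number, differences this close to 0 are values to record and no more.

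Promoters with protein-coding TSSs on both strands within 2000 bp held 21 of the sites. Of these 11 were listed (52.4%, 32.4 to 71.7%), against 50.9% of the 230 sites with TSSs on 1 strand, a difference of 1.51 points (-19.5 to 21.8). Where both TSSs were within 500 bp, 7 of 8 sites were listed (87.5%, 52.9 to 97.8%), 22.1 points (-13.5 to 36.0) above the other sites up to 500 bp. Where a TSS of the pair was farther than 500 bp, 4 of 13 were listed (30.8%, 12.7 to 57.6%). The sites with both TSSs within 500 bp that were listed included those of DNAAF10 and PNO1, DBI and C2orf76, GABRA4 and GABRB1, MARCHF5 and CPEB3, BCKDHA and EXOSC5, and MED15 and KLHL22. GABRA4 and GABRB1 encode subunits of the same GABA receptor family, and MED15 is a subunit of Mediator. The unlisted site lay in an intron of MORN1, 306 bp from its TSS and 374 bp from that of RER1, with a CpG ratio of 0.830 and unique flanks.

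In all, 271 protein-coding genes had an AsiSI site at the promoter. Of these, 138 had listed sites only, 130 unlisted sites only and 3 both, so that 52.0% (46.1 to 57.9%) had a listed site. Genes were grouped by symbol into 12 families, which took in 105 of the 271. The groups below are described by counts, beside the share of all 271. Because membership rests on the symbol, each group leaves out genes of like function of either class: the unlisted histone variant gene MACROH2A1 is not among the chromatin genes, and the listed IDH3G and BCKDHA are not among the mitochondrial genes (examples chosen after their values were seen).

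Developmental transcription factors and a group of adhesion, guidance and receptor genes had low shares. Their intervals included the share of all genes when distinct sites were counted. Mitochondrial genes, described further below, had the same share as developmental transcription factors (25%). Among 8 developmental transcription factors, 2 had a listed site (25%, 7.15 to 59.1%), an interval that included 52.0%: EBF3, 518 bp away, and FOXK1, 203 bp away, a forkhead protein that is broadly expressed. The unlisted 6 were GATA4 and HAND2, factors of heart development, PRDM16, SIX6, a homeobox factor of the eye, SOX4 and TLX3, a homeobox factor of neurons. The distances of these 6 ran from 370 bp at GATA4 to 1794 bp at HAND2, all had unique flanks, and 5 of them had a CpG ratio of 0.6 or more. GATA4, at 0.307, was the exception.

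Among 7 adhesion, guidance and receptor genes, 1 had a listed site (14.3%, 2.57 to 51.3%), the neural cell adhesion gene NCAM2 at 275 bp. The unlisted 6 were HTR1B, the neuropeptide Y receptor genes NPY1R and NPY5R, which share 1 site, LRFN2 and SLITRK5, adhesion molecules of synapses, and the plexin gene PLXNA2. The CpG ratios of their sites were between 0.641 and 0.975 and all had unique flanks. Counted by distinct sites, a count added after seeing the data, 1 of 6 was listed (16.7%, 3.01 to 56.4%), an interval that included 52.0%. The group was formed by symbol and leaves out genes of like function of either class, of which no tally is given. Listed examples are PTPRM, SDK2, GABRA4 and GABRB1, and unlisted ones GABBR2, F2RL1 and NTRK3, all named after their values were seen. Up to 500 bp the groups shrank to 1 of 2 developmental factors and 1 of 3 receptor and adhesion genes, beside 87 of 126 of all genes at this limit (69.0%).

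Each of the other groups had an interval that included 52.0%. Of 20 ubiquitin and proteasome genes, 13 had a listed site (65.0%, 43.3 to 81.9%), among them DCAF12L2 (188 bp), DCAF17 (823 bp), DERL2 (89 bp), FBXO25 (271 bp), KLHL22 (176 bp) and MARCHF5 (90 bp). Unlisted members included ASB11 (896 bp), COPS6 (1303 bp), OTUD1 (1104 bp), OTUD5 (958 bp), RNF138 (838 bp) and RNF182 (583 bp). Up to 500 bp, 11 of 12 members of this group had a listed site (91.7%, 64.6 to 98.5%), against 87 of 126 of all genes at this limit (69.0%, 60.5 to 76.5%). The counts at this limit were 4 of 4 for vesicle traffic and 3 of 3 for chromatin genes. For DNA repair and cell cycle genes the count was 1 of 1, the single gene CCNB1. The counts were 6 of 8 for RNA genes, 5 of 8 for signalling genes, 4 of 7 for transporters, 2 of 3 for zinc finger genes and 1 of 2 for mitochondrial genes. The interval of each group at this limit, ubiquitin and proteasome genes included, held the 69.0% of all genes.

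Of 15 genes of RNA synthesis, processing and translation, 9 had a listed site (60.0%, 35.8 to 80.2%). The first in the alphabet were ADARB2, DDX42, an RNA helicase, EIF3G, a translation initiation factor, EXOSC5, an exosome subunit, MED15 and RBM48. The unlisted 6 were CNOT6, a deadenylase, EEF1A2, a translation elongation factor, LARP1B, PUS7, a pseudouridine synthase, and the ribosomal protein genes RPL22 and RPS3. At 3 of these 6 (LARP1B, PUS7 and RPS3) the flanks were not unique.

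Among 7 genes of DNA repair, replication and the cell cycle, 6 had a listed site (85.7%, 48.7 to 97.4%). These were CCNB1 (105 bp), the mitotic cyclin, MIS12 (615 bp), a kinetochore protein, RAD21L1 (927 bp), a meiotic cohesin subunit, TP53BP2 (1002 bp), a p53-binding protein, and CCNL1 (793 bp) and CDK12 (1548 bp), a cyclin and a kinase known for transcription and splicing rather than the cycle. The unlisted member was H2AX (1119 bp), the histone variant that is phosphorylated around DSBs, with a site in its 3′ untranslated exon.

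Chromatin genes had listed sites at 4 of 5 (80.0%, 37.6 to 96.4%): ASXL1 (179 bp) and PCGF1 (54 bp), both Polycomb-related, KAT6B (218 bp), an acetyltransferase, and PHF21B (915 bp). H2AX, which belongs to this group too, was the fifth. Genes of vesicle traffic had listed sites at 4 of 6 (66.7%, 30.0 to 90.3%), namely DERL2, KDELR3, VPS33B and VPS50, while SCAMP5 and DNAJC30, the latter a J-domain protein of mitochondria that entered by its symbol, had unlisted ones. Zinc finger genes had listed sites at 4 of 5 (80.0%, 37.6 to 96.4%): ZNF3, ZNF322, ZNF821 and ZFP36L2, the last an RNA-binding protein with zinc fingers of the CCCH rather than the C2H2 type. KLF6 was the one member of the KLF and SP factors with a promoter site, and it was listed.

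Transporters and ion channels were close to the average, with 6 of 13 (46.2%, 23.2 to 70.9%). The listed 6 were ABCC9, GABRA4, GABRB1, SLC10A7, SLC7A10 and SLCO3A1. Unlisted members included CACNG5, SLC10A3, SLC13A5, SLC25A37, SLC25A6 and SLC30A6, of which SLC25A6 lies in the part of chromosome X that chromosome Y shares. Its site was nevertheless scored as having unique flanks, so that score did not take in the shared copy. Mitochondrial genes had 1 of 4 (25%, 4.56 to 69.9%), LYRM2, against NDUFA13, SLC25A37 and SLC25A6. Of 18 signalling genes, 11 had a listed site (61.1%, 38.6 to 79.7%). Among them were ARHGAP11A, ARHGAP20, HUNK, MAP3K10, MAPK9 and PIK3CA, the catalytic subunit of a lipid kinase. ARHGAP42, CSNK1D, DYRK1A, FGF10, PAK5 and TGFBR3 were among the unlisted.

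**Figure D5:**
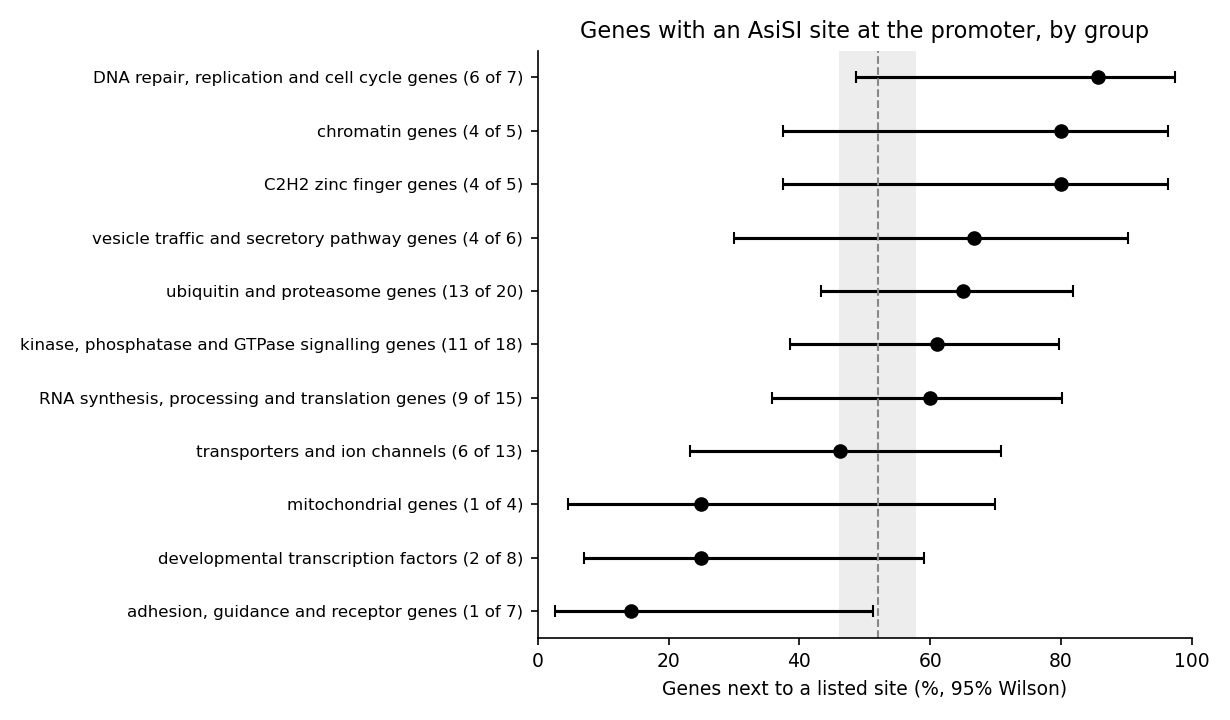
Percentage of genes with a listed site among the genes that have an AsiSI site at the promoter, for the 11 groups with 4 or more genes, with 95% Wilson intervals and counts; the dashed line and grey band give all 271 genes (52.0%, 46.1 to 57.9%). Adhesion, guidance and receptor genes (1 of 7) are lowest, and counted by distinct sites its interval crosses the line too.

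Of the 8 genes that the study followed by RT–qPCR, 6 had a listed promoter site. TRIM37 (14 bp), CYB561D1 (25 bp), RBMXL1 (40 bp, a site it shares with KYAT3) and HUNK (185 bp) had sites close to the TSS. MIS12 shared its site, 615 bp away, with DERL2, and KLF6 had its site 1151 bp into the gene in an intron. The CpG ratio at these 6 sites ran from 0.460 at KLF6 to 0.989 at TRIM37, and all had unique flanks. The study took these genes, by its own account at random, from those near AsiSI cut sites, so their listing follows from the choice and is a description.

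When the features were combined, 69 of the 100 sites that were up to 500 bp from a TSS, CpG-rich and unique were listed (69.0%, 59.4 to 77.2%). With a GC box as well, 56 of 76 were listed (73.7%, 62.8 to 82.3%). These features had already been seen to differ between the classes in the same data. Sites up to 500 bp were listed in 67.0% with no further condition and in 73.8% with a GC box alone, so the combined shares were close to these. At the other end, 9 of 37 sites that were farther away and CpG-poor were listed (24.3%, 13.4 to 40.1%), a difference of -31.3 points (-44.0 to -14.1) from the rest. Thus 20 promoter sites carried all 4 features and were unlisted. Across chromosomes the counts were small, from 5 listed of 5 promoter sites on chromosome 12 and 8 of 9 on chromosome 3 to 4 of 15 on chromosome 11, 2 of 9 on chromosome 18 and 1 of 5 on chromosome 16.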

How the data were processed

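Per the study's methods, the authors aligned the BLISS read pairs to GRCh37/hg19 (BWA, no more than 1 mismatch), collapsed duplicates (SAMtools) and used reads that carried the barcode and had a unique position. Read numbers in a window of 100 bp on each side of each AsiSI site predicted by EMBOSS were normalized, and the induced library was set against the uninduced one. The cut-off for the list is not given in the sources used here. The deposited values are other than measurements: they are the start and end positions of 214 sites, with no count, ratio or score. All 214 starts were the 1-based first base of GCGATCGC in GRCh37.

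GCGATCGC was searched on both strands in GRCh37, and distances were taken to GENCODE release 44 gene records lifted to GRCh37. GC content and CpG ratio were taken from 250 bp either side, and outward 31-mers were counted genome-wide. Shares have 95% Wilson intervals, differences of shares Newcombe intervals and medians order-statistic intervals. No p-value is given, since there was 1 library per condition and neighbouring sites share sequence. Intervals were not corrected for their number. The site search and intervals were tested on simulated data.

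The members, gene groups and comparisons were chosen with earlier results of these data known. Named sites were, by rule, the 10 listed and 10 unlisted sites nearest a TSS, the 5 listed with the lowest and 5 unlisted with the highest CpG ratio, promoters with sites of both classes, divergent promoters with both TSSs within 500 bp, up to 6 listed and 6 unlisted genes per group in alphabetical order, and the genes of the RT–qPCR. Alternatives were other distance limits, TSS definitions, windows and k-mer lengths, and leaving out sites. No other sample of the series was analysed here. Some genes and a sequence that these rules pick are not reported here. Scripts ran under Python 3.11.15 (statsmodels 0.14.6 and scipy 1.17.1 for intervals, pandas 2.3.3 and numpy 2.4.6 for tables, matplotlib 3.10.9 for figures).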

Additional observations from a re-analysis of the deposited data

How the results depend on the processing

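For the 9 main comparisons, 57 of 61 alternatives stayed within the interval of the reported value. The exceptions were as follows. The share of promoter sites listed was 58.8% with a limit of 1000 bp, 41.9% with a limit of 5000 bp and 42.7% when TSSs of all gene records counted. The downstream share exceeded the upstream share by 23.5 points (4.31 to 37.5) among sites more than 500 bp from the TSS, an alternative chosen after seeing the data. The difference between near and far sites ranged from 25.5 to 32.3 points over its alternatives, and its intervals all stood above 0. The median CpG ratio was higher at listed sites under all alternatives, by 0.0488 to 0.0979, but its interval included 0 with windows of 100 and 1000 bp. The difference in median GC content turned to -0.125 points with a window of 1000 bp and to -0.492 points with unique 31-mers only. The side difference turned to -3.52 points with unique 31-mers only, and the divergent difference ran from -2.07 points on chromosomes 1 to 22 to 16.5 points with both strands within 1000 bp, with 0 in each interval. The difference in unique flanks was 16.5 points with 25-mers and 5.76 points with 50-mers. Of 67 alternatives for single elements and gene groups, 6 moved outside the interval, and the cause was not tested. No paired analysis was possible because each condition had 1 BLISS library and the list holds no values per library. The depth of the libraries is unknown, so absence from the list does not show that a site was uncut. For the unlisted site of LRFN2 there is other evidence: the paper used it as a negative control, reported uncut in earlier work by a ligation-based method.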

Other observations

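The deposited list is not sorted by position, and the sources used here do not say whether its order is the ranking by enrichment. The 128 listed promoter sites had a median row of 96.5 (quartiles 51.8 and 139) and the 86 other listed sites a median row of 140 (quartiles 63.3 and 179). Promoter sites made up 46 of the first 71 rows (64.8%), 53 of the middle 71 (74.6%) and 29 of the last 72 (40.3%). Within promoter sites, the median distance from the TSS was 262 bp in the first, 275 bp in the middle and 460 bp in the last of these stretches. The median CpG ratio differed little between them, at 0.804, 0.841 and 0.836, as did the share with unique flanks, at 93.5%, 94.3% and 93.1%. Among the named sites, that between DNAAF10 and PNO1 was in row 2, that of DERL2 and MIS12 in row 4 and that of TRIM37 in row 11.

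A further CpG that overlaps the edge of the recognition sequence (a C before it or a G after it) was present at 138 promoter sites. Of these 53.6% (95% Wilson interval 45.3 to 61.7%) were listed, against 47.8% (38.8 to 56.9%) of the 113 without one, so the intervals overlapped.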
